A study of Mus musculus with 23 samples.

Results

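Apoe, Apoc2 and Apoc3 are genes of 3 exchangeable apolipoproteins, the proteins on the surface of lipoprotein particles. They were picked by symbol, all 3 had values, and they are 3 of the 748 genes with values. Transcripts were counted in the hippocampus of 23 mice with an nCounter metabolic pathways panel, in which each transcript is hybridised to a colour-coded probe and counted without amplification. All mice were 18 months old, were on a C57BL6/J background and were treated for 5 months. WT_Veh were 4 wild-type mice on vehicle. AD_Veh were 5 mice on vehicle called 3xTgAD in the labels, which carry the transgenes Tg(APPSwe,tauP301L)1Lfa among other changes. ADP_Veh were 4 mice on vehicle with this genotype that also carried 1 heterozygous Polbtm1Rsky allele, which removes a copy of the gene of DNA polymerase beta. AD_UA and ADP_UA were 5 mice each of these genotypes given urolithin A, a gut bacterial product of the ellagitannins in plant foods, at 200 mg per kg and day by oral gavage. WT_Veh held 2 females and 2 males, AD_Veh 3 and 2, and ADP_Veh 1 and 3. AD_UA held 2 females and 3 males, and ADP_UA 3 and 2. No treated wild-type mice were among the samples, and the mutant groups share the changes of 3xTgAD. The APP and tau transgenes of this line are driven by a neuronal Thy1 element, so that the model places human APP and tau in neurons.

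Apoe is the main carrier of cholesterol and phospholipid between brain cells. It is secreted mostly by astrocytes and also by microglia, which raise it when they take up debris or surround plaques, and it binds receptors of the LDL receptor family. Apoc2 and Apoc3 act on the triglyceride of circulating lipoproteins, Apoc2 as the required cofactor of lipoprotein lipase and Apoc3 as an inhibitor of that enzyme and of particle uptake by the liver. Both are made mainly by the liver, and Apoc2 is also made by macrophages, where liver X receptors induce it with its neighbours.

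In the RefSeq annotation of GRCm38.p6, Apoe and Apoc2 lie in 1 cluster on chromosome 7, in the order Apoc2, Apoc4, Apoc1, Apoe, and Apoc3 lies on chromosome 9 between Apoa1 and Apoa4. All 3 genes matched this annotation, and 2 of them had a promoter entry. The windows below span 300 bases around an annotated start, most of them upstream. They are shown because Apoe and Apoc2 varied together between mice, as described further on. Capitals mark AGGTCA, the half-site of nuclear receptors such as the liver X receptors, and GAGGAA, the core of the box bound by PU.1, the myeloid transcription factor. Both motifs were searched on both strands, so that a reverse match reads TGACCT or TTCCTC, and neither overlaps the other here. The Apoc2 window is chr7:19677892-19678191 and the first of 3 Apoe windows is chr7:19699139-19699438, both on the minus strand.
Apoc2: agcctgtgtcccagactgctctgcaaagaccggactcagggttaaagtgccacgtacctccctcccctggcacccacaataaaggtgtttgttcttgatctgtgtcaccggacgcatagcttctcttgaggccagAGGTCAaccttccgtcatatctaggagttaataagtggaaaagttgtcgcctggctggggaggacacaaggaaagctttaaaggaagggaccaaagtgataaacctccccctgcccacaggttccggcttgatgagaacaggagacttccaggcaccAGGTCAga
Apoe: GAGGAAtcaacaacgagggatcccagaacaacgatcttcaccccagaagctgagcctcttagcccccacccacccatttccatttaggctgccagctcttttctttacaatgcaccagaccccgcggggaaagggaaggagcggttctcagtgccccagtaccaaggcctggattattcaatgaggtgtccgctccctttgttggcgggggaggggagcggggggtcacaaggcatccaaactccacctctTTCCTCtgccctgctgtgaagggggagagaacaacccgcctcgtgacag
The Apoc2 window held 2 AGGTCA and 0 GAGGAA, and the Apoe window held 0 AGGTCA and 2 GAGGAA. Of 32851 promoter windows of this length, 16.3% held at least 1 AGGTCA and 28.3% at least 1 GAGGAA, and the shares with 2 were not computed. The TATA box TATAAA was searched as well and was in neither window, against 13.6% of all. Of the other Apoe windows, the second held the TATA box on both strands and the third held the PU.1 core once. These matches describe letters in the windows and were looked at after the values below were known.

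The 3 transcripts differed in abundance. Values are log2 of normalized counts as deposited, and the counts before scaling could be inferred, since low values lay at log2 of a whole number plus 1 constant per mouse. Apoe had the fifth highest mean of the 748 genes, 13.19, and its inferred counts were 4733 to 17299 per mouse, which came to 1.94% of all counts. Apoc2 ranked 610 with a mean of 3.78 and 6 to 28 inferred counts, and Apoc3 ranked 542 with a mean of 4.51 and 6 to 70. Different probes need not capture their transcripts equally well, so these ranks order the counts and not the number of transcripts. Other low-count apolipoproteins lay not far below Apoc2, with group means of 2.71 to 3.29 for Apob and 2.93 to 3.45 for Apoa4. The sources used here give no background level of the probes. Whether the Apoc2 and Apoc3 counts exceeded background was therefore not tested.

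These depths set the precision of each value. The spread between mice within a group (SD, 18 degrees of freedom) was 0.42 for Apoe, 0.69 for Apoc2 and 0.56 for Apoc3 on the log2 scale. Poisson counting alone would give an SD of 0.0154 for Apoe, 0.132% of its variance, but 0.41 for Apoc2 and 0.33 for Apoc3, which are 35.5% and 35.2% of theirs. Intervals of this kind cover counting error only. The inferred total was 186093 in ADP_UA replicate 5 and 246152 in ADP_UA replicate 3, and 426460 to 692634 in the other 21 mice. Apoc3 rested on 6 and 9 counts in those mice and Apoc2 on 7 and 13.

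**Figure D1:**
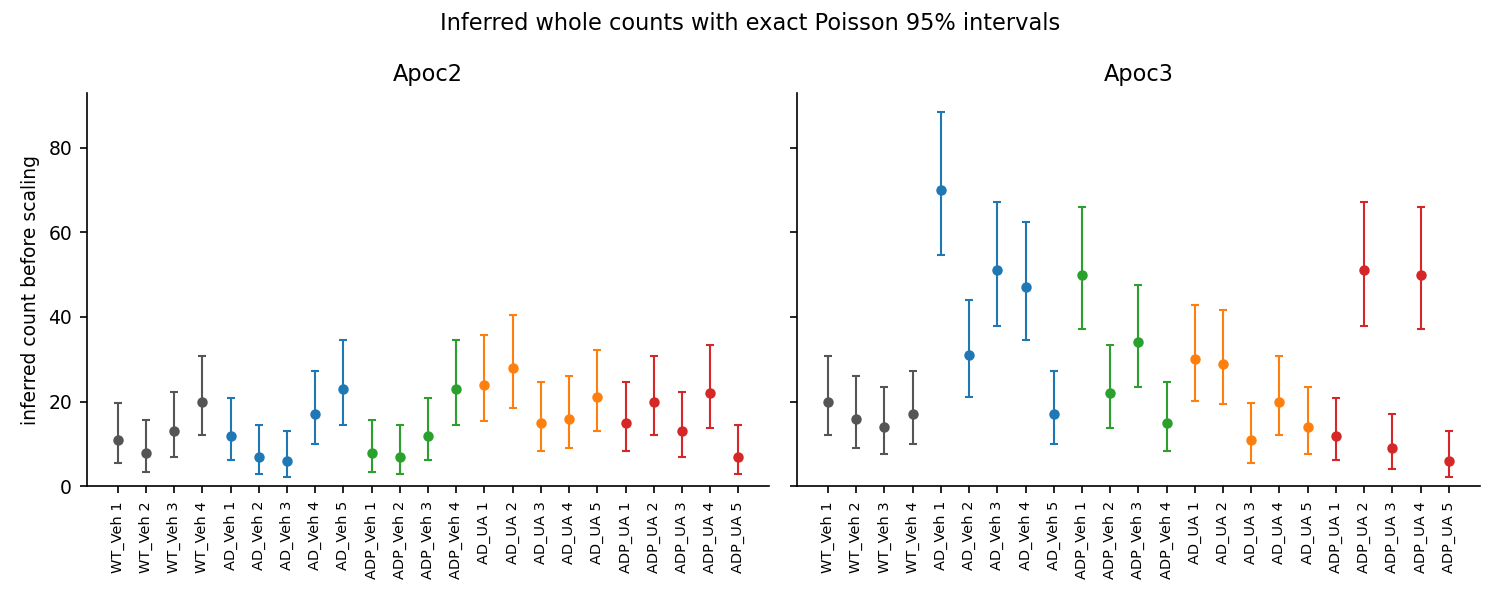
Inferred whole counts of Apoc2 and Apoc3 before scaling (vertical axis, linear) in each of the 23 mice (horizontal axis, coloured by group), with exact Poisson 95% intervals as bars. Apoc2 lies between 6 and 28 counts, with an interval of 2.20 to 13.1 for the lowest mouse and 18.6 to 40.5 for the highest, and Apoc3 reaches 70 counts in AD_Veh replicate 1.

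Genes were tested when the normalized value reached 20 in at least 4 mice, which kept 619 of 748 genes. Apoe reached 20 in all 23 mice, Apoc2 in 6 and Apoc3 in 11. The Apoc2 mice were spread over all groups, 1 each in WT_Veh, AD_Veh, ADP_Veh and ADP_UA and 2 in AD_UA. Apoc3 reached 20 in 0 of 4 WT_Veh mice and in 4 AD_Veh, 2 ADP_Veh, 3 AD_UA and 2 ADP_UA mice, so that it passed this filter only through the mutant groups. Differences below are on the log2 scale and come from limma, with SE for standard error. Adjusted p-values were obtained by the Benjamini-Hochberg method over the 619 genes.

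Markers of some cell types that can make these transcripts were measured. The 7 microglia and macrophage markers used here (Itgam, Ptprc, Cd68, Ctss, Cybb, Cd14 and Itgb2) had inferred counts above 0 in every mouse. The measured liver and lymphocyte markers did too. A count inferred from a log2 value cannot be 0, so that this holds for any gene with values. It does not show that a cell type was present. Of the astrocyte list 1 marker was measured, Glul, the glutamine synthetase, at a group mean of 13.54 in WT_Veh. Ttr, the transthyretin gene that marks choroid plexus, ran from 4.12 to 13.55 between mice, which is far wider than any of the 3 apolipoproteins. In bulk tissue a lower number of cells of a type and less RNA per cell cannot be told apart.

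**Figure D2:**
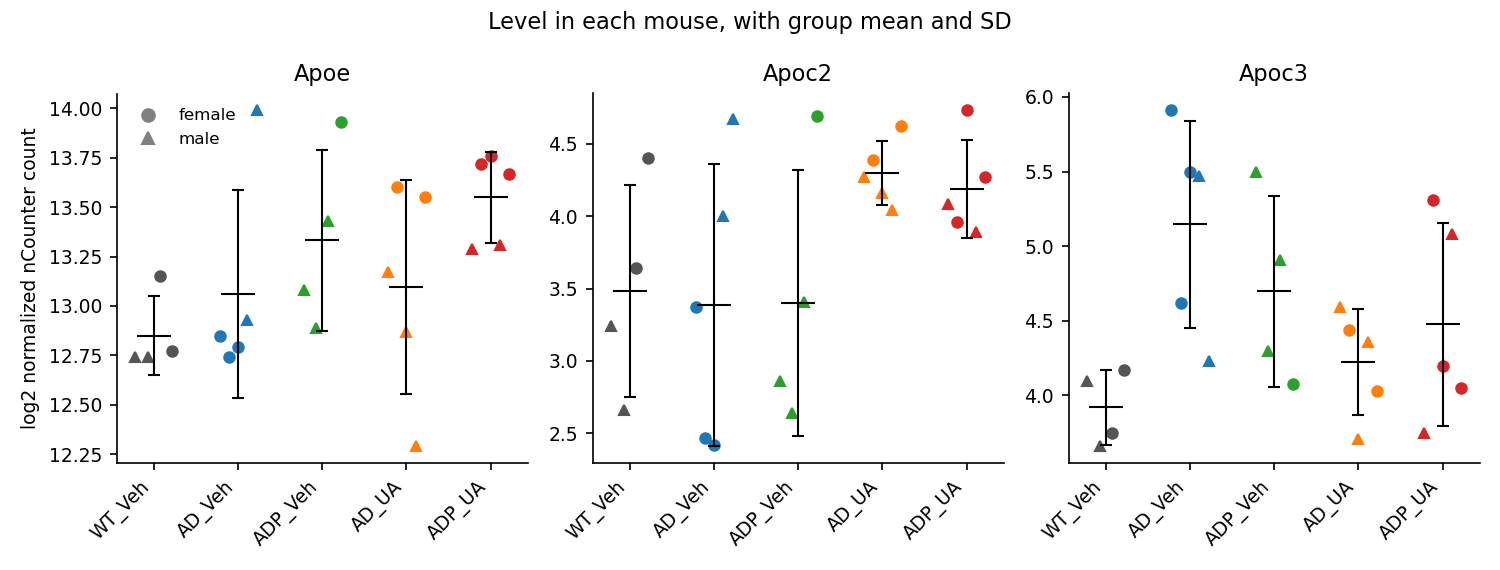
Level of Apoe, Apoc2 and Apoc3 in each mouse (log2 normalized count, vertical axes cut to each gene's range) by group, with females as circles, males as triangles, and the group mean and SD as black bars. Apoe is highest on average in ADP_UA, Apoc2 in the 2 groups given urolithin A and Apoc3 in AD_Veh, and no member passed the test in limma.

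Apoe, the lipid carrier, lay within a narrow range in wild-type mice apart from 1 animal. WT_Veh replicates 1 to 4 were at 12.74, 12.74, 13.15 and 12.77. AD_Veh replicates 1 to 5 were at 12.85, 12.74, 12.79, 12.93 and 13.99. The other 4 of these 5 mice lay inside the wild-type range, and replicate 5, a male, lay above it. In ADP_Veh the values were 13.08, 12.89, 13.43 and 13.93, all above the wild-type mean and 2 of 4 above every wild-type mouse.

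Group means of Apoe were 12.85 ± 0.20 (SD, n = 4) in WT_Veh, 13.06 ± 0.52 (n = 5) in AD_Veh and 13.33 ± 0.46 (n = 4) in ADP_Veh. AD_Veh differed from WT_Veh by 0.21 (SE 0.265, adjusted p = 0.83), with 0.162% of all genes called in that comparison (1 of 619), and without AD_Veh replicate 5 the difference was -0.023. ADP_Veh differed from WT_Veh by 0.48 (SE 0.279, adjusted p = 0.451), a comparison with 0 genes called (0%) and 81 at an unadjusted p under 0.05. The 95% interval of that difference, -0.099 to 1.06, includes 0. Without ADP_Veh replicate 4, the only female of its group, the difference was 0.28. With array weights, which give variable mice less weight, the difference was 0.61 (limma adjusted p = 0.0255) and 132 genes were called. ADP_Veh and AD_Veh differed by 0.27 (adjusted p = 0.961), and by 0.073 without ADP_Veh replicate 4 and 0.51 without AD_Veh replicate 5.

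In treated mice Apoe was at 13.17, 13.60, 12.87, 12.29 and 13.55 in AD_UA and at 13.29, 13.72, 13.76, 13.31 and 13.67 in ADP_UA. ADP_UA was the tightest mutant group, and each of its 5 mice lay above each wild-type mouse. AD_UA spanned the lowest value of the series and values near the top. In AD_UA the females were at 13.55 and 13.60 and the males at 12.29 to 13.17. In ADP_UA the females were at 13.67 to 13.76 and the males at 13.29 and 13.31. The order was the other way in AD_Veh, with females at 12.74 to 12.85 and males at 12.93 and 13.99. The means were 13.10 ± 0.54 (n = 5) and 13.55 ± 0.23 (n = 5), and they differed by 0.45 (SE 0.250, adjusted p = 0.659). Without AD_UA replicate 4, the mouse with the lowest Apoe, that difference was 0.25.

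Urolithin A did not give a detectable difference in Apoe. AD_UA and AD_Veh differed by 0.036 (SE 0.250, adjusted p = 0.99), with an interval of -0.48 to 0.56 and the opposite sign after median centring or quantile normalization. ADP_UA and ADP_Veh differed by 0.22 (SE 0.265, adjusted p = 0.900), and by 0.070 without ADP_Veh replicate 2 and 0.42 without ADP_Veh replicate 4. Averaged over both genotypes the difference was 0.13 (SE 0.182, adjusted p = 0.877), and the effects in the 2 genotypes differed by 0.18 (SE 0.364, adjusted p = 0.99). No gene passed limma in any of these treatment comparisons (0% of 619), with 21, 40, 34 and 31 genes at an unadjusted p under 0.05.

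The order of the Apoe means was WT_Veh, AD_Veh, AD_UA, ADP_Veh and ADP_UA, and each gap between neighbours (0.21, 0.036, 0.24 and 0.22) was smaller than the within-group SD of 0.42. The lowest and highest groups differed by 0.70 (SE 0.265, unadjusted p = 0.0153, limma adjusted p = 0.177), or 1.62 times with a 95% interval of 1.11 to 2.38. This contrast mixes genotype and treatment and was picked after the values were seen. Values did not overlap between these groups for Apoe, as for 4.68% of the 619 genes in this direction, and 17.1% of genes were higher at an unadjusted p under 0.05 (0 called in limma). Leaving out each mouse in turn kept the difference between 0.65 and 0.80, and over the other settings it ran from 0.43 after quantile normalization to 0.77 with array weights (limma adjusted p = 0.00668). Apoe differed between females and males by 0.28 (SE 0.164, adjusted p = 0.689) with group means in the model, a comparison with 0 genes called in limma (0%) and 48 at an unadjusted p under 0.05. Without AD_Veh replicate 5 the sex difference was 0.44 (limma adjusted p = 0.0321), and 28 genes were called.

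Apoc2, the lipoprotein lipase cofactor, varied most in the vehicle groups. WT_Veh replicates 1 to 4 were at 3.24, 2.66, 3.64 and 4.40, or 11, 8, 13 and 20 inferred counts. AD_Veh replicates 1 to 5 were at 3.37, 2.47, 2.42, 4.00 and 4.67. ADP_Veh replicates were at 2.86, 2.64, 3.41 and 4.69. The 3 vehicle groups covered nearly the same range.

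The mice given urolithin A lay in the upper part of that range, apart from ADP_UA replicate 3, which was just above its highest value of 4.69. AD_UA replicates were at 4.27, 4.39, 4.16, 4.04 and 4.62, with 15 to 28 inferred counts. ADP_UA replicates were at 4.08, 3.96, 4.73, 3.89 and 4.27, with 7 to 22 inferred counts. All 10 treated mice were above the mean of the vehicle group of their genotype, and each treated group overlapped its vehicle group. The SDs of 0.22 in AD_UA and 0.34 in ADP_UA were below those expected from counting alone, 0.33 and 0.40.

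Means of Apoc2 were 3.49 ± 0.73 in WT_Veh (SD, n = 4), 3.39 ± 0.97 in AD_Veh (n = 5), 3.40 ± 0.92 in ADP_Veh (n = 4), 4.30 ± 0.22 in AD_UA (n = 5) and 4.19 ± 0.34 in ADP_UA (n = 5). The genotype comparisons were close to 0 with wide intervals. AD_Veh minus WT_Veh was -0.099 (SE 0.450, 95% interval -1.03 to 0.84) and ADP_Veh minus WT_Veh was -0.085 (SE 0.474, interval -1.07 to 0.90). ADP_Veh and AD_Veh differed by 0.014 and ADP_UA and AD_UA by -0.11. The adjusted p-values of these 4 differences in limma were 0.952, 0.958, 0.997 and 0.940.

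With urolithin A the Apoc2 difference from vehicle was 0.91 in AD mice (SE 0.424, unadjusted p = 0.0437, adjusted p = 0.932) and 0.79 in ADP mice (SE 0.450, adjusted p = 0.754). The latter was 0.53 without ADP_Veh replicate 2 and 1.22 without ADP_Veh replicate 4, and quantile normalization gave 0.59 in AD and 0.43 in ADP mice. The mean over both genotypes was 0.85 (SE 0.309, unadjusted p = 0.0122, adjusted p = 0.740), or 1.80 times with a 95% interval of 1.15 to 2.81. Over the other settings this mean ran from 0.51 after quantile normalization to 1.08 with array weights. It had the sixth smallest p of the 619 genes and did not pass. At an unadjusted p under 0.05, 4.2% of all genes were higher in this comparison. The effects in the 2 genotypes differed by -0.12 (SE 0.618, interval -1.41 to 1.16). Ttr was higher by 1.75 (SE 1.37) and the median of the 7 microglia markers by 0.33 in the same comparison, and their part in the Apoc2 value was not tested. In order of the means, AD_Veh, ADP_Veh and WT_Veh were followed by ADP_UA and AD_UA, and only the gap between WT_Veh and ADP_UA, 0.70, was larger than the within-group SD of 0.69.

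Apoc3, the inhibitor of lipoprotein lipase, was low in all wild-type mice, at 4.10, 3.66, 3.75 and 4.17, or 20, 16, 14 and 17 inferred counts. AD_Veh replicates 1 to 5 were at 5.91, 4.62, 5.50, 5.47 and 4.23, or 70, 31, 51, 47 and 17 inferred counts. Every AD_Veh mouse was above every wild-type mouse, but replicate 5 exceeded the highest of them by less than counting error, with the same 17 counts as WT_Veh replicate 4. ADP_Veh replicates were at 5.50, 4.30, 4.91 and 4.08, and 3 of these 4 lay above all wild-type mice.

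The difference between AD_Veh (5.15 ± 0.69, n = 5) and WT_Veh (3.92 ± 0.25, n = 4) was 1.23 (SE 0.368, unadjusted p = 0.00318, adjusted p = 0.281), or 2.34 times with a 95% interval of 1.38 to 3.98. It had the seventh smallest p of the 619 genes and did not pass in limma. Apoc3 is among these genes only through values of mutant mice, as given above, so this rank is no separate support. The SD of 0.25 in WT_Veh was below that expected from counting alone, 0.36. Groups did not overlap in this direction for 1.13% of all genes, and 5.49% were higher at an unadjusted p under 0.05. Leaving out each mouse in turn gave 1.03 to 1.46, with adjusted p-values of 0.132 to 0.564. With array weights the difference was 1.29 (limma adjusted p = 0.0188) and 10 genes were called. ADP_Veh (4.70 ± 0.64, n = 4) differed from WT_Veh by 0.78 (SE 0.388, adjusted p = 0.391), or 0.51 without ADP_Veh replicate 1, and from AD_Veh by -0.45 (SE 0.368, adjusted p = 0.961).

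In treated mice Apoc3 was at 4.59, 4.44, 3.71, 4.36 and 4.03 in AD_UA and at 3.75, 5.31, 4.20, 5.08 and 4.05 in ADP_UA. All 5 AD_UA mice were below the AD_Veh mean and 2 were below every AD_Veh mouse. In ADP_UA, replicates 2 and 4 lay above all wild-type mice by a wide margin and the other 3 mice, among them both mice of low totals, lay near the wild-type values. AD_UA (4.23 ± 0.35, n = 5) and AD_Veh differed by -0.92 (SE 0.347, unadjusted p = 0.0150, adjusted p = 0.932), the second smallest p of the 619 genes. At an unadjusted p under 0.05, 0.323% of genes (2 of 619) were lower and 3.07% higher in that comparison.

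ADP_UA (4.48 ± 0.68, n = 5) and ADP_Veh differed by -0.22 (SE 0.368, adjusted p = 0.900), and without both mice of low totals by 0.016. ADP_UA and AD_UA differed by 0.25 (SE 0.347, adjusted p = 0.819). The mean difference with urolithin A was -0.57 (SE 0.253, unadjusted p = 0.0352, adjusted p = 0.740), with 1.29% of genes lower at an unadjusted p under 0.05. Over the other settings this mean ran from -0.86 after quantile normalization to -0.41, and leaving out each mouse gave -0.68 to -0.44. The effects in the 2 genotypes differed by 0.70 (SE 0.506, interval -0.35 to 1.75, limma adjusted p = 0.99). The AD_Veh mice enter both the comparison with wild type and the one with AD_UA, so that the pair of Apoc3 differences is not independent. No neighbours in the order WT_Veh, AD_UA, ADP_UA, ADP_Veh and AD_Veh differed by more than the within-group SD of 0.56. Females and males differed by 0.037 in Apoc3 and by 0.24 in Apoc2 (SE 0.243 and 0.292).

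**Figure D3:**
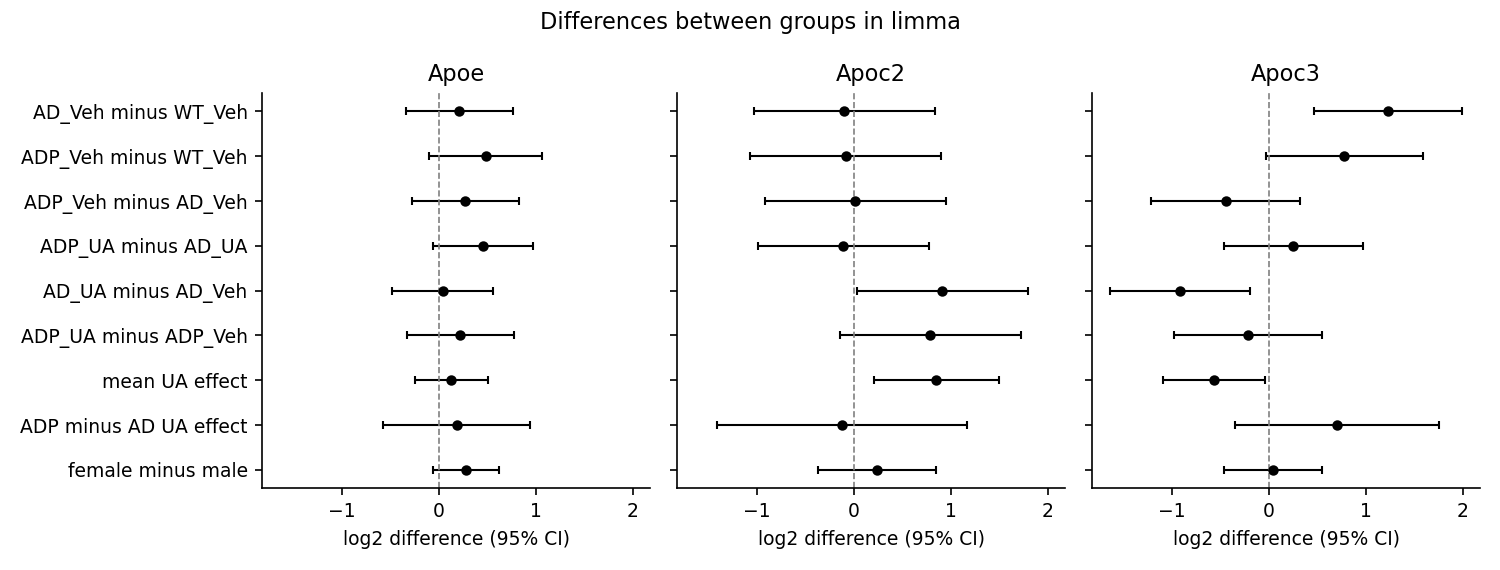
Log2 differences in limma (horizontal axes, points) with 95% confidence intervals (bars) for Apoe, Apoc2 and Apoc3 in the 9 comparisons (rows), where UA is urolithin A. The intervals leave out 0 for Apoc2 in AD_UA minus AD_Veh and the mean UA effect, and for Apoc3 in AD_Veh minus WT_Veh, AD_UA minus AD_Veh and the mean UA effect, all before adjustment over 619 genes.

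Other genes of lipoprotein handling were described from a list of 51, of which 7 had values (Cd36, Apoa1, Apoa2, Apoa4, Apob, Apom and Fabp5) and 3 could be tested. In AD_Veh against WT_Veh none of Apoa2, Fabp5 and Cd36 passed (0 of 3), with a median of 0.13 against 0.042 over all genes. Apoa2, a protein of high-density lipoprotein, had 0.87 (SE 0.330, adjusted p = 0.484). Apoa1, the neighbour of Apoc3 on chromosome 9 and the main protein of high-density lipoprotein, was under the filter. Its values were 5.34, 3.67, 4.22, 5.58 and 2.14 in AD_Veh replicates 1 to 5, against 1.37 to 3.12 in wild-type mice. AD_Veh replicate 5 was the lowest of its group for both Apoa1 and Apoc3, and replicates 1, 3 and 4 were the highest 3 for both. Over all 23 mice the deviations of the 2 genes had r = 0.095 and rho = 0.014 (permutation p = 0.730 and 0.960). The liver list, 9 measured genes that include Apoa1 and Apoa2, summed to 93.7 to 196.1 normalized counts in AD_Veh and 75.6 to 100.4 in WT_Veh. It was 82.1 to 114.9 in ADP_Veh, 89.7 to 138.1 in AD_UA and 86.6 to 203.9 in ADP_UA. The last group holds both mice of low totals, in which a normalized value of 20 stood for 7.26 and 9.82 inferred counts. The part of such transcripts in the Apoc3 values was not tested.

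Of the 6 tested nuclear receptors and sterol regulators, a group that includes Srebf1 and Srebf2, the regulators of lipid synthesis, and Pparg, a lipid-sensing receptor, 0 of 6 passed in any comparison. Their median difference was 0.067 in AD_Veh against WT_Veh and 0.027 for the mean effect of urolithin A, against 0.042 and 0.045 over all genes. Pparg was at 0.83 (SE 0.322, adjusted p = 0.932) in AD_UA against AD_Veh.

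Between mice of the same group, Apoe and Apoc2 varied together. Mice with more Apoe than their group mean tended to have more Apoc2, and AD_Veh replicate 5 and ADP_Veh replicate 4 were high for both. Pearson's r of the deviations from group means was 0.69 over 23 mice (permutation p = 0.000200, 0.000600 adjusted over 3 pairs of genes), and Spearman's rho was 0.77 (permutation p adjusted over 3 pairs = 0.000120). Mice were permuted within groups, two-sided, with 100000 resamples.

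This relation was weaker without those 2 mice, which were the farthest from the median deviation of Apoe, at r = 0.48 (adjusted permutation p = 0.00855). Read by level instead of deviation, the farthest mice were AD_UA replicate 4 and AD_Veh replicate 5, and r was 0.65 without them. It was 0.68 without both mice of low totals, 0.64 after median centring, 0.67 with the scaling constant removed, 0.68 with sex removed and 0.41 when each gene was replaced by its rank among the genes of the same mouse (adjusted permutation p = 0.0301), a scale on which Apoe can hardly move. Deviations of Apoc2 also went with the scaling constant itself (r = 0.41, rho = 0.52, permutation p adjusted over 42 relations = 0.00420 for r). Among the 618 other genes, 18.9% were correlated with Apoe at an adjusted p under 0.05, and Apoc2 ranked 82 by r.

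Apoc3 did not share this pattern. Its r was -0.30 with Apoe (permutation p = 0.222, rho = -0.14) and -0.27 with Apoc2 (permutation p = 0.309, rho = -0.22). Without the 2 farthest mice by deviation the values were 0.015 and 0.057, and without the 2 farthest by level they were -0.11 and -0.35. No difference between these correlations and that of Apoe with Apoc2 was tested.

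**Figure D4:**
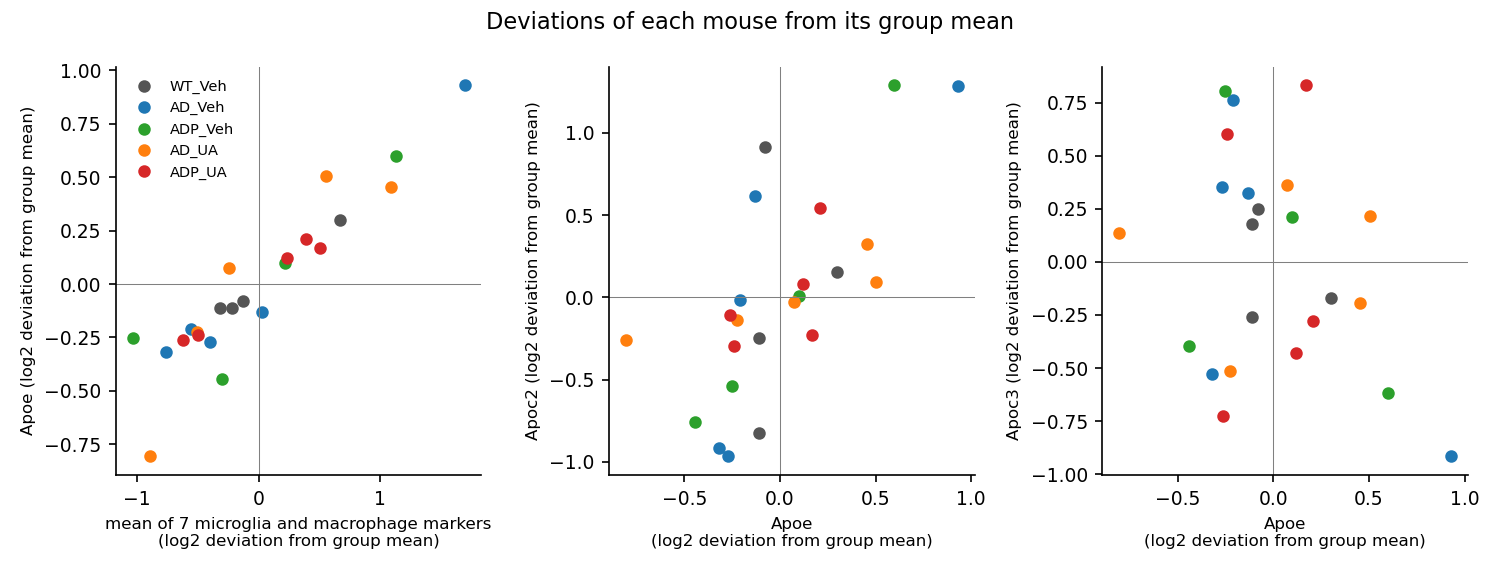
Deviation of each mouse from its group mean (log2 on both axes, 23 points coloured by group) for Apoe against the mean of 7 microglia and macrophage markers (left), Apoc2 against Apoe (middle) and Apoc3 against Apoe (right). Apoe follows the markers closely (r = 0.93), Apoc2 follows Apoe with more scatter (r = 0.69) and Apoc3 shows no such line (r = -0.30).

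Likeness across mice was measured by r of the deviations over 618 genes and 23 mice. The 5 genes most like Apoe were Bcl2a1a, a survival factor of leukocytes (0.94), H2-K1, a class I antigen-presenting molecule (0.93), Ctss, cathepsin S (0.92), Itgb2, a leukocyte integrin chain (0.92), and Csf3r, a cytokine receptor of myeloid cells (0.91). Each had a permutation p at the smallest value that 100000 permutations can give, and 0.000412 after adjustment over 618 genes. The 5 most like Apoc2 were Cd274, the PD-L1 gene (0.83), Slc1a5, a glutamine transporter (0.82), Tbxas1, the thromboxane synthase of macrophages and platelets (0.78), Runx1, a blood cell transcription factor (0.78), and Ccl2, a monocyte chemokine (0.78). Their adjusted permutation p-values lay between 0.00309 and 0.0135, and 10.7% of genes passed for Apoc2.

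For Apoc3 no gene passed (0%). Among the 5 highest were Prr5, a subunit of the mTORC2 complex (0.72, adjusted permutation p = 0.0754), Hif3a, a hypoxia-inducible factor subunit (0.68), Psmc1, a proteasome subunit (0.67), and Chmp6, a subunit of the membrane-sorting ESCRT complexes (0.67). All genes share the libraries and their scaling, and genes are not independent of each other.

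The microglia and macrophage markers were correlated with Apoe and Apoc2. With Apoe, 7 of 7 were correlated (r 0.74 to 0.92, median 0.90), where 18.9% of all genes were called, 113 of the 117 positive, and the median r over all genes was 0.23. With Apoc2, 6 of 7 passed (r 0.52 to 0.75, median 0.72), and the exception was Itgam (0.52, adjusted permutation p = 0.214), where 10.7% of all genes were called, 60 of the 66 positive, and the median r was 0.20. With Apoc3, 0 of 7 passed and all 7 were negative (-0.51 to -0.16). Ctss and Itgb2 are also among the 5 genes most like Apoe.

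The mean of the 7 markers had r = 0.93 with Apoe (rho = 0.92, permutation p adjusted over 42 relations = 0.000210), 0.72 with Apoc2 (rho = 0.74, 0.00588) and -0.36 with Apoc3 (rho = -0.20, 0.522). Without the 2 farthest mice these were 0.88, 0.52 and -0.30. Apoe had r = 0.30 with the astrocyte marker Glul (rho = 0.17, permutation p = 0.266) and 0.19 with Ttr (permutation p = 0.431), neither of which passed. Markers of other cell types did pass. Grin1, a glutamate receptor subunit of neurons, had r = -0.67 with Apoe (adjusted permutation p = 0.0165), the lowest of the 618 genes, and -0.57 with Apoc2 (0.0317), whereas the neuronal Gad1 and Mapt did not pass with either. Nkg7, a gene of cytotoxic lymphocytes at a low level, had 0.62 with Apoe (adjusted permutation p = 0.00480) and 0.59 with Apoc2 (0.0902). Apoa4, the neighbour of Apoc3 and a low-count gene under the filter, had r = 0.60 with Apoe and 0.41 with Apoc2 (permutation p adjusted over 42 relations = 0.0297 and 0.0112).

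**Figure D5:**
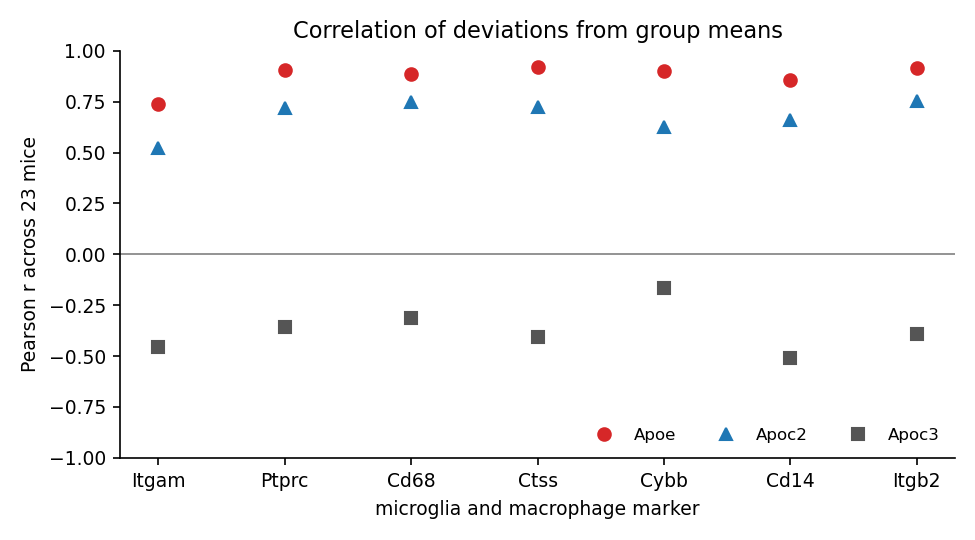
Pearson r (vertical axis) across 23 mice between deviations from group means of each of 7 microglia and macrophage markers (horizontal axis) and those of Apoe (circles), Apoc2 (triangles) and Apoc3 (squares). All values for Apoe lie at 0.74 or above, those for Apoc2 at 0.52 to 0.75, and those for Apoc3 below 0.

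Across groups none of the markers passed the test. Their median difference from WT_Veh was 0.35 in AD_Veh, 0.67 in AD_UA, 0.76 in ADP_Veh and 1.11 in ADP_UA, against 0.042, 0.12, 0.095 and 0.11 over all genes, and 0 of 7 passed in limma in each. The order of these medians was that of the Apoe means, but between AD_UA and AD_Veh the markers had a median difference of 0.35 where Apoe differed by 0.036. Their summed level was 1532 to 2909 normalized counts in WT_Veh, 1708 to 7185 in AD_Veh, 1474 to 6758 in ADP_Veh, 1654 to 5607 in AD_UA and 2521 to 5326 in ADP_UA. In ADP_UA against WT_Veh, Cd14, a receptor for bacterial lipopolysaccharide, was at 1.27 (SE 0.436, adjusted p = 0.164) and Apoe at 0.70. The 4 measured genes of disease-associated microglia (Ctsd, Ctsz, Ctsl and Cd63) had a median of 0.94 there, with 0 of 4 past the test. The astrocyte marker Glul differed from WT_Veh by 0.16 in AD_Veh, 0.12 in AD_UA, 0.34 in ADP_Veh and 0.056 in ADP_UA. It passed in none of these (limma adjusted p = 0.553, 0.596, 0.157 and 0.706), and its order was not that of the Apoe means. The part of the microglia or astrocyte signal in the Apoe and Apoc2 values was not tested.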

How the data were processed

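RNA from 1 hippocampus sample per mouse (about 100 ng, per the labels) was hybridised to the panel, and each sample was taken as 1 mouse. The authors deposited log2 values of normalized counts (2 decimals, 768 rows, 20 of them without values). Their normalization genes and background steps are not given in the sources used here. In each mouse at least 99.6% of low values lay within 0.0125 of log2 of a whole number plus 1 constant, which gave the inferred counts. A normalized value of 20 stood for 7.26 to 29.6 of them. In R 4.3.3, limma 3.58.1 fitted these deposited values (eBayes with trend) with 1 mean per group over 23 mice, two-sided, at an adjusted p of 0.05. No count model was used as the main test, since the table holds log2 values. Replicates are separate mice in the labels.

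The members, lists, tests and motifs were chosen with earlier results of these data known. The rule named the 3 apolipoproteins in each comparison, the 3 list members of smallest p in lists described, the 5 genes most correlated with each member, and Ttr, Folr1, Glul and microglia markers, of which only those with values needed beside a result are given. A few items that the rule or the labels name are not reported here and were left out of the gene lists, but stayed in the fits over all genes. There were 9 comparisons, and 3 more (each treated group against WT_Veh, and the mean ADP minus AD difference) were added after seeing results. Correlations covered 3 pairs, 42 relations to other measures and 618 genes per member. The 2 readings of the farthest mice were both computed, and the reading by deviation was preferred after that by level had been seen. Tested alternatives were 2 scalings, 2 filters, 3 covariates, the groups compared alone, a replicate block, 3 other limma settings, regression per gene, limma-voom (added), and leaving out mice. The correlation between deviations of same-numbered mice of different groups ran from -0.39 to 0.55 over 43 pairs, with a median of 0.17. Mice of different numbers were not compared in this way, so that these values do not settle whether the numbers pair the mice. Scripts were tested on simulated data. Python 3.11.15 was used with SciPy 1.17.1, pandas 2.3.3 and NumPy 2.4.6, and plots were drawn in matplotlib 3.10.9. Promoter windows are from RefSeq, GRCm38.p6.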

Additional observations from a re-analysis of the deposited data

Results flagged for a closer look

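Apoe had 1 mouse apart from the others in each of 2 groups. In WT_Veh, replicate 3 was at 13.15 and the next mouse at 12.77, a gap of 0.927 of the group's range. In AD_Veh, replicate 5 was at 13.99 and the next mouse at 12.93, a gap of 0.848 of the range. Both exceed Dixon's 95% critical value for groups of that size. Over the 15 groups looked at (3 genes in 5 groups), chance flags about 1 in 20.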

How the results depend on the processing

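Under 15 settings (limma-voom among them, added after seeing the data) and with each mouse left out, most member differences kept their direction and side of the threshold, but many were close to 0. Of the values by setting, 169 of 178 for Apoe, 157 of 166 for Apoc2 and 156 of 166 for Apoc3 kept both. Counting error limits Apoc2 and Apoc3, and a filter of 50 left them without a value. Centring on reference genes was not run, because no source used here marks a gene with values as one. The causes of the changes below were not tested.

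Array weights changed most. Genes called were then 10 in AD_Veh minus WT_Veh, 132 in ADP_Veh minus WT_Veh, 2 in ADP_Veh minus AD_Veh, 1 in AD_UA minus AD_Veh, 92 in AD_UA minus WT_Veh, 182 in ADP_UA minus WT_Veh and 32 in females minus males. Members past the threshold were Apoc3 in AD_Veh minus WT_Veh (1.29, adjusted p = 0.0188), Apoe in ADP_Veh minus WT_Veh (0.61, 0.0255), ADP_UA minus WT_Veh (0.77, 0.00668) and females minus males (0.39, 0.0308), and Apoc2 in AD_UA minus WT_Veh (1.19, 0.0306) and ADP_UA minus WT_Veh (1.12, 0.0306). The sign turned for Apoc2 in ADP_Veh minus WT_Veh (0.33) and the mean ADP minus AD difference (0.22), for Apoe in the difference between treatment effects (-0.21) and for Apoc3 in females minus males (-0.15).

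AD_Veh minus WT_Veh had 0 genes called after median centring, quantile normalization, or with only the groups compared. Limma-voom called 3 genes between the sexes. Median centring turned Apoc2 in ADP_Veh minus AD_Veh (-0.030) and Apoe in AD_UA minus AD_Veh (-0.058). Quantile normalization turned Apoe in ADP_Veh minus AD_Veh (-0.029), AD_UA minus AD_Veh (-0.24) and the mean treatment effect (-0.058), Apoc2 in ADP_Veh minus AD_Veh (-0.18), and Apoc3 in ADP_UA minus AD_UA (-0.064), AD_UA minus WT_Veh (-0.012), ADP_UA minus WT_Veh (-0.076) and females minus males (-0.24). The scaling covariate turned Apoc2 in ADP_Veh minus AD_Veh (-0.020), Apoc3 in ADP_UA minus ADP_Veh (0.048) and in the mean ADP minus AD difference (0.042). The Ttr covariate turned Apoc2 in ADP_Veh minus AD_Veh (-0.0071) and Apoe in AD_UA minus AD_Veh (-0.015). Without both mice of low totals, Apoc3 turned in ADP_UA minus ADP_Veh (0.016) and in the mean ADP minus AD difference (0.019). Without the 2 mice farthest by deviation, the correlations of Apoc3 were 0.015 with Apoe and 0.057 with Apoc2.

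With a replicate block, 1 gene was called in ADP_Veh minus WT_Veh and 2 in the mean ADP minus AD difference, where Apoc2 was at 0.022. Apoc3 in AD_Veh minus WT_Veh was at 1.35 (limma adjusted p = 0.197). Whether the replicate numbers pair these mice was not settled, and the block moved no member across the threshold.

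Leaving out each mouse gave these ranges. Genes called were 0 to 2 in AD_Veh minus WT_Veh, 0 to 6 in ADP_Veh minus WT_Veh, 0 to 1 in ADP_UA minus AD_UA, 0 to 13 in ADP_UA minus WT_Veh and 0 to 28 between the sexes. Apoe ran from 0.28 to 0.63 in ADP_Veh minus WT_Veh, 0.073 to 0.51 in ADP_Veh minus AD_Veh, 0.25 to 0.58 in ADP_UA minus AD_UA, 0.070 to 0.42 in ADP_UA minus ADP_Veh, -0.023 to 0.31 in AD_Veh minus WT_Veh, -0.09 to 0.27 in AD_UA minus AD_Veh, -0.051 to 0.38 in the difference between treatment effects and 0.19 to 0.44 between the sexes, past the threshold without AD_Veh replicate 5. Apoc2 ran from -0.42 to 0.21 in AD_Veh minus WT_Veh, -0.52 to 0.22 in ADP_Veh minus WT_Veh, -0.42 to 0.34 in ADP_Veh minus AD_Veh, -0.45 to 0.31 in the difference between treatment effects, -0.26 to 0.11 in the mean ADP minus AD difference and -0.0017 to 0.46 between the sexes. Apoc3 ran from -0.43 to 0.048 in ADP_UA minus ADP_Veh, -0.23 to 0.0047 in the mean ADP minus AD difference and -0.10 to 0.18 between the sexes.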
